A study of Nicotiana tabacum with 60 samples.

Results

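ΔpetN is a transplastomic tobacco line in which petN, the chloroplast gene of a small membrane subunit of the cytochrome b6f complex, was knocked out by inserting the aadA spectinomycin resistance cassette. It was compared with pRB8c, a transplastomic control line that carries the aadA cassette and keeps petN. Both lines were made in Nicotiana tabacum cultivar Petit Havana and were grown on sucrose medium in low light, since ΔpetN cannot live from photosynthesis, and were harvested at the size of a seedling with 4 leaves. The comparison took every chloroplast reading frame of the deposited tables that reached 10 counts in at least 3 libraries of both assays, which left 77 of 78 genes (only matK fell below) in 12 of the 60 libraries of the series. The series profiled mutants of the photosynthetic complexes and their controls, 10 lines in all, by ribosome profiling (Ribo-seq, the mRNA fragments protected by translating ribosomes) and by sequencing of total RNA (RNA-seq), each in 3 replicates per line. It asked whether the loss of a subunit changes the synthesis of its partner subunits in the chloroplast. The readouts for each gene were footprints in the reading frame (translation output), RNA, and the change in footprints relative to the change in RNA (translation efficiency).

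The cytochrome b6f complex passes electrons from plastoquinone to plastocyanin, between photosystem II (PSII) and photosystem I (PSI), and pumps protons across the thylakoid membrane. Its large chloroplast-encoded subunits are cytochrome f (petA), cytochrome b6 (petB) and subunit IV (petD), and the small hydrophobic subunits PetG, PetL and PetN surround the core. PetN is needed for the assembly of the complex in tobacco, so that a petN knockout lacks linear electron transport. In the green alga Chlamydomonas, synthesis of cytochrome f is known to depend on the assembly of its partner subunits.

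The replicates are described as biological replicates, and p-values rest on the spread among 3 libraries of a line. Footprints of genes with introns, petB and petD among them, were counted over the last exon only, and RNA reads that run into an intron were left out.

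Reading frames held 1067510 to 1854615 footprint counts in the ΔpetN libraries and 1334157 to 2204303 in pRB8c, and 9687267 to 13756031 RNA counts in either line. The chloroplast received 16.3% ± 0.75 of mapped footprint reads in ΔpetN and 24.2% ± 2.85 in pRB8c (SD, n = 3 in every group here), with no overlap between the lines, and 62.9% ± 1.41 against 59.8% ± 1.46 of mapped RNA reads. Of the chloroplast footprint reads, 71.2% ± 8.22 lay in reading frames in ΔpetN and 85.9% ± 6.02 in pRB8c. An exact permutation test (2-sided) gave p = 0.1 for each of these, the smallest value that 3 libraries against 3 allow. All gene values below are relative to the other chloroplast genes, because the libraries were scaled to each other with TMM factors, which assume that most genes do not change. Scaling by library size alone moved the median change of all genes up by 0.73 (log2) in footprints and by 0.81 in RNA. In bulk seedling tissue, fewer cells or chloroplasts of a kind and less RNA in each cannot be told apart.

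In translation output, 20 genes were higher in ΔpetN (26% of those tested) and 17 were lower (22.1%) at an adjusted p of 0.01 or less in edgeR's quasi-likelihood test, which is what "called", "rose" and "fell" mean below. Only 4 genes were called with at least a 4-fold change, all of them lower (5.19%): petN, psbA, psbM and ndhA. In RNA, 20 genes were higher (26%) and 33 lower (42.9%), and the at least 4-fold changes were the falls of petN, psbM and psbN (3.9%). In translation efficiency, 20 genes were higher (26%) and 17 lower (22.1%), and petB was the only gene past 4-fold (1.3%). No gene rose at least 4-fold in footprints or in RNA in edgeR (0 called, with 27 and 26 genes higher by any amount at an unadjusted p under 0.05), and DESeq2 also gave 0, but with library sizes alone 10 and 4 genes did. Scaled by library sizes alone the split was 43 higher and 10 lower in footprints, 50 higher and 10 lower in RNA, and 16 higher and 16 lower in translation efficiency. Scaling per all mapped reads (limma on the deposited RPKM) gave 14 higher and 16 lower genes in footprints, 50 and 7 in RNA, and 2 and 29 in translation efficiency, whose median moved to -0.70. The 2 higher genes were petB and psbH, so that other rises in translation efficiency below are relative to the remaining chloroplast genes. ndhG, at -1.99 in footprints, lay just short of 4-fold. The median change over all genes was -0.05 in footprints, -0.06 in RNA and 0.25 in translation efficiency (log2).

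**Figure D1:**
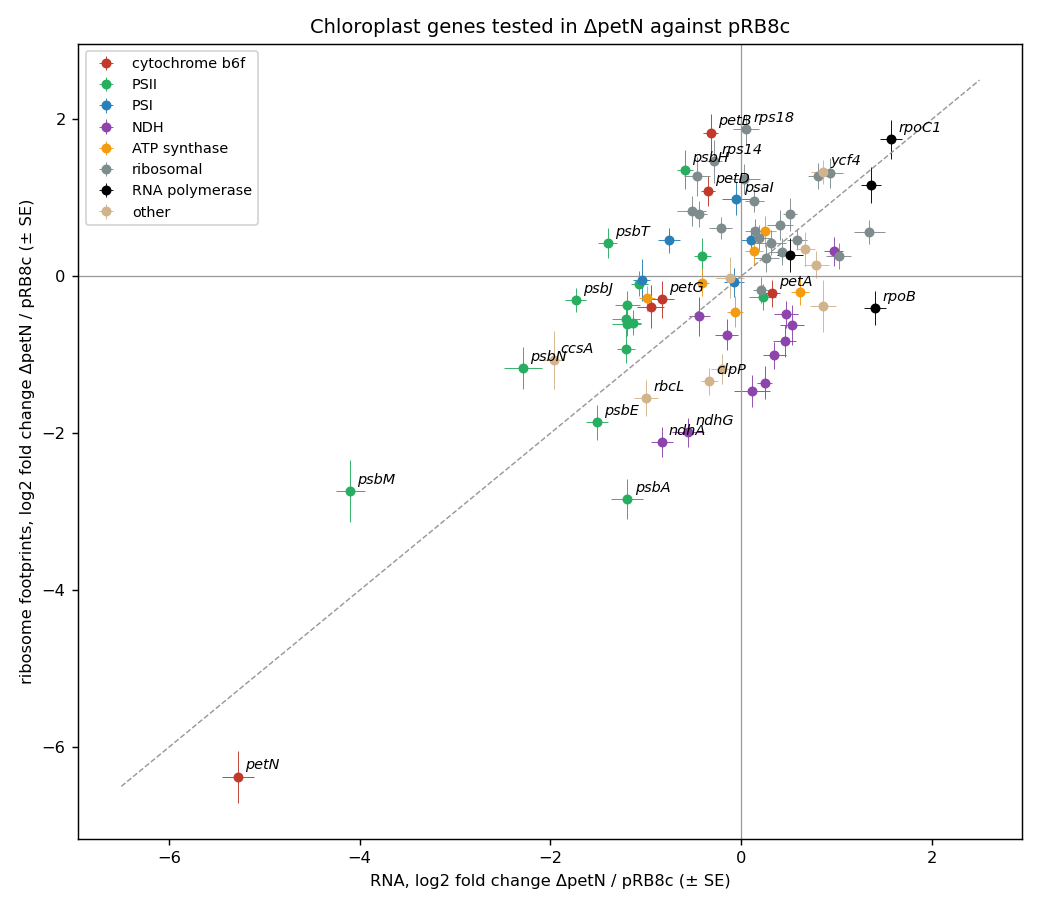
Change in ribosome footprints (vertical axis) against change in RNA (horizontal axis), both as log2 fold change of ΔpetN over pRB8c, for the 77 genes tested; bars are standard errors and the dashed line marks equal change. petN sits lowest at -6.38 and -5.28, psbA lies well below the line, and petB, psbH and rps18 lie well above it.

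The knocked-out gene itself checked the labels. petN, counted between positions 29553 and 29602 of the plus strand of the tobacco chloroplast genome, had 19, 13 and 20 footprint counts in the ΔpetN libraries and 782, 809 and 1264 in the pRB8c libraries. Its RNA counts were 157, 109 and 145 in ΔpetN and 2714, 2369 and 2560 in pRB8c. The lines did not overlap in either assay, and petN fell 83.1-fold in footprints (adjusted p = 2.72e-07) and 38.8-fold in RNA (adjusted p = 4.90e-11). Counts were low but not 0 in each ΔpetN library. Translation efficiency of petN was -1.11 (log2, adjusted p = 0.0090), a call lost in 4 of the 6 fits that left out 1 library of each assay.

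psbM, the next protein-coding gene beside petN and one that encodes a small PSII subunit, is read from the opposite strand (positions 30775 to 30839). It had 154, 122 and 80 footprint counts in ΔpetN against 341, 220 and 1188 in pRB8c, and 1663, 1077 and 1159 RNA counts against 12787, 11899 and 7782. All ΔpetN libraries lay below all pRB8c libraries once scaled, and the third pRB8c footprint library stood above the other two, at 639 CPM against 266 and 246 (CPM are counts scaled by library size and TMM factor). psbM changed by -2.74 in footprints (log2, SE 0.39, adjusted p = 2.42e-04) and by -4.10 in RNA (SE 0.15, adjusted p = 1.27e-10). With 1 library left out the footprint change lay between -2.97 and -2.14, the latter without pRB8c replicate 3, and was called each time. The call in translation efficiency (log2 1.36, adjusted p = 0.00607) was lost in 5 of these 6 fits. According to the study, transcription runs on from the inserted cassette and makes antisense RNA across psbM, and the sources do not say whether the counting used strand, so the psbM RNA values may hold reads of both strands. rpoB, on the other side of petN beyond a tRNA gene, rose in RNA and is described with its operon.

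**Figure D2:**
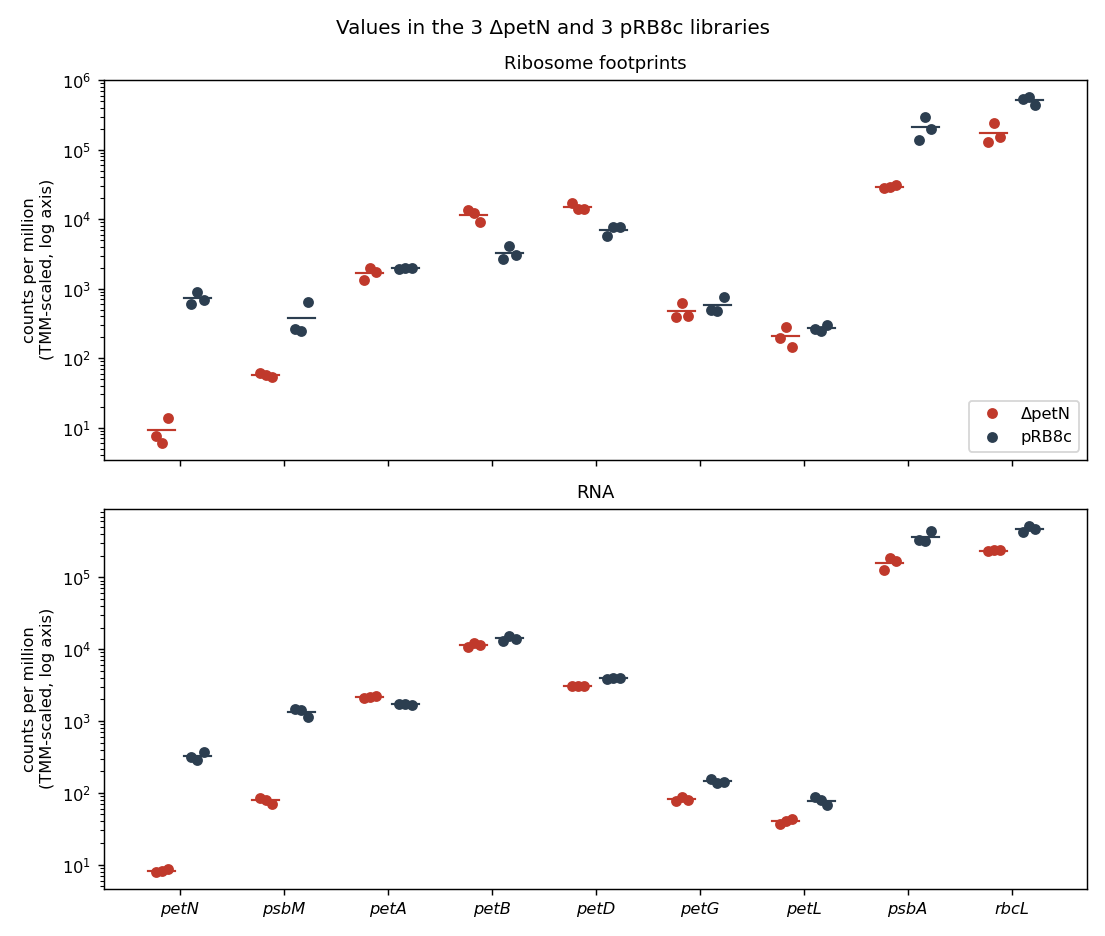
CPM (log axis) of 9 genes in each ΔpetN library (red) and each pRB8c library (dark), footprints above and RNA below; points are libraries and short lines are means. petB and petD footprints lie higher in all ΔpetN libraries while their RNA lies slightly lower, and petA, petG and petL footprints overlap between the lines.

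Among the remaining cytochrome b6f genes, petB and petD rose in translation output, and petA, petG and petL were not called. petB, the gene of cytochrome b6, stood at 13736, 12273 and 8978 footprint CPM in ΔpetN and at 2677, 4142 and 3011 in pRB8c. Every ΔpetN library exceeded every control library, and the rise was 3.56-fold (log2 1.83, SE 0.23, adjusted p = 1.31e-04). petD, the gene of subunit IV, stood at 17107, 14053 and 13903 against 5721, 7808 and 7611. These groups were also apart, with a 2.13-fold rise (log2 1.09, SE 0.19, adjusted p = 7.41e-04). Both rises were called in each of 6 fits that left out 1 library per assay, and petB was called against RB70, the aadA control of the psaB mutants of the series, as well (log2 1.41, adjusted p = 1.45e-04). petD was not called against RB70 (log2 0.32, adjusted p = 0.116). The RB70 libraries were shallower, with 253111, 231081 and 160029 footprint counts and 1956066, 2278698 and 1826492 RNA counts in reading frames.

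The RNA of petB and petD changed far less than their footprints. petB RNA was 10739, 12035 and 11248 CPM in ΔpetN and 13167, 15421 and 13907 in pRB8c, and petD RNA was 3096, 3107 and 3064 against 3826, 4018 and 3954. Both were called slightly lower by TMM scaling (log2 -0.32 and -0.35), but with library sizes alone both were called higher (0.49 and 0.46), so the RNA direction rests on the scaling. Against RB70 both fell (-2.46 each), as did 9 of the 12 genes with introns. In the RB70 RNA libraries, counts in reading frames came to 110.8%, 95.5% and 109.4% of the chloroplast reads. In pRB8c they came to 86.1%, 87.0% and 85.4%. RNA and translation efficiency values against RB70 are given with this reservation throughout, and whether RB70 RNA was counted in another way was not tested. Translation efficiency rose 4.45-fold for petB (log2 2.15, SE 0.24, adjusted p = 7.44e-06) and 2.71-fold for petD (log2 1.44, SE 0.19, adjusted p = 1.53e-05). Under library sizes these values were 2.10 and 1.38, both called, and per all mapped reads petB was at 1.19 (limma, adjusted p = 0.00233) while petD was not called (0.49, adjusted p = 0.138). petB had the largest rise in translation efficiency of the 77 genes. On the authors' RPKM scale, which is per gene length and per mapped reads, petB footprints were at 2942 ± 833 in ΔpetN and 858 ± 81.3 in pRB8c, and petD footprints at 5204 ± 965 and 2572 ± 237 (SD, n = 3).

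petA, the gene of cytochrome f, stood at 1331, 1972 and 1746 footprint CPM in ΔpetN and at 1930, 1976 and 1963 in pRB8c. The lines overlapped, and the difference of -0.22 (log2, SE 0.17) was not called (adjusted p = 0.284). petA RNA was higher in all ΔpetN libraries, at 2110, 2183 and 2198 against 1742, 1752 and 1684, a 1.25-fold rise (adjusted p = 0.00251). Its translation efficiency value was -0.54 (SE 0.20) and missed the threshold (adjusted p = 0.0241), but per all mapped reads it was -1.52 and called (limma, adjusted p = 2.36e-04). The small subunit genes petG and petL, which lie side by side, overlapped between the lines in footprints (log2 -0.29, SE 0.24, and -0.39, SE 0.27). Their RNA was below the control in every ΔpetN library, petG at 77, 88 and 79 CPM against 158, 135 and 142, and petL at 37, 41 and 44 against 89, 79 and 67. petG RNA fell 1.78-fold (adjusted p = 6.87e-05) and petL RNA 1.93-fold (adjusted p = 4.30e-05), and neither was called in translation efficiency. These RNA calls were lost under scaling by library sizes (petG -0.03, petL -0.15). Of all 6 cytochrome b6f genes, petN included, 2 rose and 1 fell in footprints, 1 rose and 5 fell in RNA, and 2 rose and 1 fell in translation efficiency. The fall in footprints was that of petN, which is also among the falls in RNA, and the knockout fixed both in advance. The fall in translation efficiency was that of petN too, and it rests on the low counts left in ΔpetN. Over all genes 26% rose and 22.1% fell in footprints, and 42.9% fell in RNA. Scaled by library sizes, 3 rose and 1 (petN) fell in RNA, beside 50 rises and 10 falls among all 77 genes. The median footprint change of the 6 was -0.26, beside -0.05 over all genes.

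petB and petD are the last genes of a cluster that is transcribed as a unit and starts with the PSII genes psbB, psbT and psbH. Along this cluster translation output changed by -0.59 for psbB (not called, adjusted p = 0.0101), 0.42 for psbT (not called, adjusted p = 0.0759), 1.36 for psbH, 1.83 for petB and 1.09 for petD. psbH, the gene of a small PSII phosphoprotein, stood at 9365, 5938 and 8147 footprint CPM against 2146, 3617 and 3373 in pRB8c. The lines were apart, and the rise was 2.57-fold (SE of the log2 value 0.25, adjusted p = 9.50e-04), although psbH was not called against RB70 (log2 0.68, adjusted p = 0.0138). RNA changed by -1.13 at psbB, -1.40 at psbT and -0.59 at psbH, the last turning to 0.22 (not called) with library sizes alone. Translation efficiency rose 3.54-fold for psbT (adjusted p = 9.46e-06) and 3.86-fold for psbH (adjusted p = 1.53e-05), beside 1.46-fold for psbB, which was not called (adjusted p = 0.0164). Against RB70 psbT fell in footprints (log2 -0.87, adjusted p = 0.00301) and was not called in translation efficiency (0.21, adjusted p = 0.459). psbN lies within this cluster on the opposite strand and is needed for PSII assembly. It fell 2.25-fold in footprints (adjusted p = 0.00374) and 4.88-fold in RNA (adjusted p = 5.17e-07), the footprint call being lost under library sizes (-0.39), with the reservation that reads of psbN and of the cluster across it cannot be separated without strand.

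**Figure D3:**
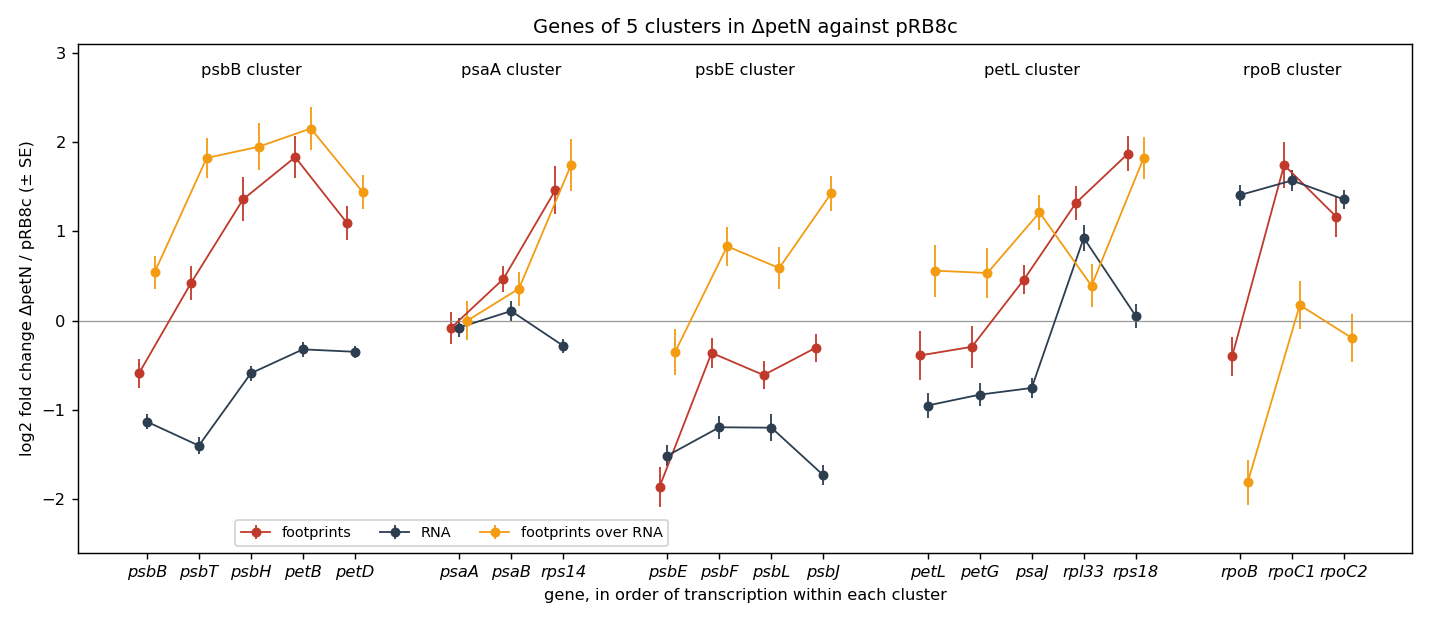
Change of each gene (log2 fold change of ΔpetN over pRB8c, ± SE) along 5 gene clusters in order of transcription, for footprints (red), RNA (dark) and footprints over RNA (orange). In the psbB cluster translation efficiency is 0.54 at psbB and between 1.44 and 2.15 at the 4 genes after it, and in the psaA cluster it rises from near 0 at psaA to 1.74 at rps14.

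Other clusters also held unequal changes among their genes, given here as a description because differences between genes were not tested. In the unit of psaA, psaB and the ribosomal protein gene rps14, translation output changed by -0.08 and 0.47 (neither called) and by 1.46 at rps14 (adjusted p = 0.00112). In the unit of psbE, psbF, psbL and psbJ, all of them genes of small PSII subunits, RNA changed by -1.51, -1.19, -1.20 and -1.73, all called. Footprints of psbE and psbL changed by -1.86 and -0.61, both called by TMM although psbL turned to 0.12 (not called) under library sizes, while those of psbF and psbJ were not called (-0.36 and -0.30). Translation efficiency in this unit rose for psbF (1.78-fold) and psbJ (2.69-fold, adjusted p = 1.53e-05) and was not called for psbE and psbL. In the group petL, petG, psaJ, rpl33 and rps18, footprints changed by -0.39, -0.29, 0.46, 1.32 and 1.87, and the last 2 were called.

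psbA, the gene of the PSII reaction centre protein D1, had the largest fall in translation output after petN. Its footprints stood at 27870, 29260 and 31243 CPM in ΔpetN and at 140288, 291767 and 201652 in pRB8c. The highest ΔpetN library was far below the lowest control library, and the fall was 7.17-fold (log2 -2.84, SE 0.25, adjusted p = 1.56e-05). psbA RNA was 126474, 184214 and 167898 against 334003, 323354 and 436782, which was 2.29-fold lower (adjusted p = 3.38e-05). The size of this RNA fall rests on the scaling. With library sizes alone it was -0.39 (log2, adjusted p = 0.00268), and per all mapped reads it was -0.33 and not called (limma, adjusted p = 0.0421). Translation efficiency fell 3.14-fold (log2 -1.65, SE 0.31, adjusted p = 2.07e-04). Against RB70, psbA footprints also fell (log2 -2.97), but psbA RNA was higher in ΔpetN (0.93, adjusted p = 0.00474). psbA took 3.82% ± 0.45 of the footprint counts in reading frames in ΔpetN and 16.0% ± 4.17 in pRB8c.

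Of the 15 PSII genes, psbM and psbA included, 1 rose (psbH) and 6 fell in footprints, none rose and 14 fell in RNA, and 6 rose and 1 fell in translation efficiency. Over all genes 22.1% fell in footprints, 42.9% fell in RNA and 26% rose in translation efficiency. The median change of the PSII genes was -0.55 in footprints, -1.20 in RNA and 0.66 in translation efficiency. The only PSII gene not called in RNA was psbI (log2 0.23). Under library sizes 8 of the 15 fell and 2 rose in RNA, with a median of -0.39, and 3 fell and 4 rose in footprints, with a median of 0.17. All 77 genes then gave 10 falls and 50 rises in RNA and 10 falls and 43 rises in footprints. psbE, which encodes a subunit of cytochrome b559, stood at 1577, 2570 and 1585 footprint CPM against 6954, 7664 and 6226. The groups were apart, and psbE fell 3.64-fold in footprints (adjusted p = 1.12e-04) and 2.85-fold in RNA (adjusted p = 2.00e-07), with no call in translation efficiency. psbD and psbC, the genes of D2 and the antenna protein CP43, overlap on the genome and fell 2.31-fold and 2.09-fold in RNA (psbC not called under library sizes, -0.25). psbD footprints fell 1.91-fold (adjusted p = 0.00119), a call lost with library sizes alone and against RB70, and psbC footprints were not called (log2 -0.10, SE 0.16), and psbC rose 1.96-fold in translation efficiency (adjusted p = 2.07e-04).

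rbcL, the gene of the large subunit of Rubisco, the enzyme that fixes carbon dioxide, took 39.6% ± 3.1 of the footprint counts in reading frames in pRB8c and 22.3% ± 5.69 in ΔpetN. On the scaled values it stood at 129110, 244713 and 152465 footprint CPM against 529148, 573843 and 441423. The second ΔpetN library was the highest of its group but still below every control library. rbcL fell 2.93-fold in footprints (log2 -1.55, SE 0.23, adjusted p = 2.91e-04) and had an RNA change of -0.997 (log2, SE 0.13, adjusted p = 1.69e-05), which was -0.18 and not called with library sizes alone. Translation efficiency of rbcL (log2 -0.56, SE 0.27) was not called (adjusted p = 0.0843), but without the second ΔpetN replicate it was -0.92 and called, and per all mapped reads it was -1.57 and called.

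**Figure D4:**
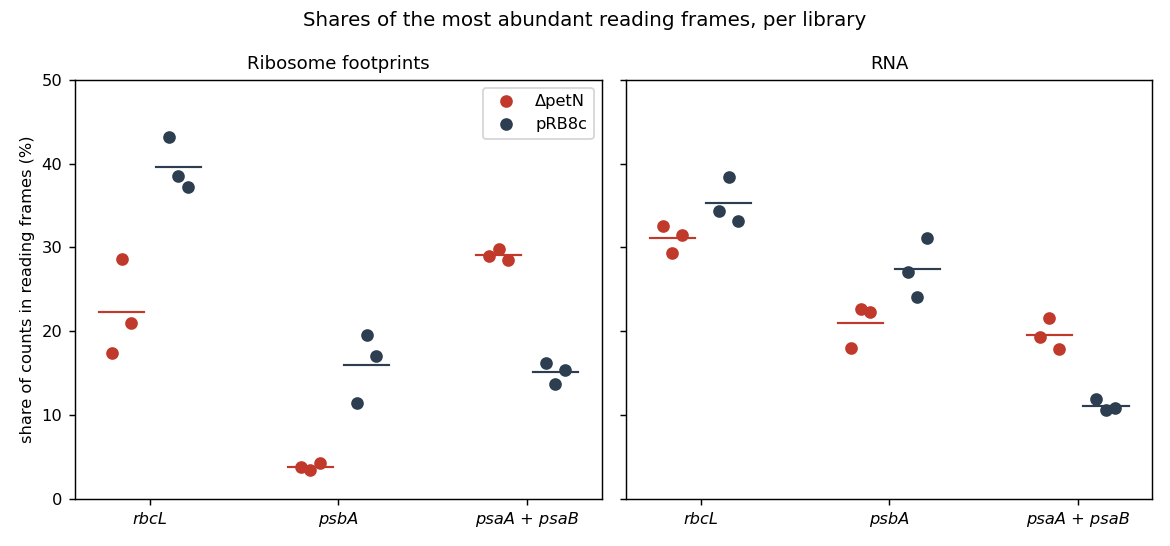
Share of all reading frame counts (%) taken by rbcL, psbA and the sum of psaA and psaB in each ΔpetN library (red) and each pRB8c library (dark), for footprints (left) and RNA (right), with means as lines. Footprint shares of psaA and psaB together lie between 28.4% and 29.8% in ΔpetN and between 13.7% and 16.2% in pRB8c, while rbcL and psbA shares were lower in ΔpetN.

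psaA and psaB, the core subunits of PSI, together took 28.9%, 29.8% and 28.4% of footprint counts in the ΔpetN libraries and 16.2%, 13.7% and 15.4% in pRB8c, and the lines did not overlap. Once the libraries were scaled, psaA differed little (log2 -0.08, SE 0.18, adjusted p = 0.691) and psaB was 1.38-fold higher without a call (adjusted p = 0.0159). psaB stood at 129463, 132580 and 122421 footprint CPM against 93673, 99109 and 85247, so that the lines were apart. psaB was called under library sizes (log2 1.21) and against RB70 (0.77, adjusted p = 0.00144), and psaA under library sizes (0.65, adjusted p = 4.92e-04). psaB was called in 3 of the 6 fits without 1 library, those without ΔpetN replicate 1, 2 or 3. psaI, the gene of a small PSI subunit, was the only PSI gene called in footprints, at 925, 716 and 780 against 293, 465 and 462 CPM, all ΔpetN libraries above the control (1.98-fold, adjusted p = 0.00237). Against RB70 psaI fell (log2 -1.07, adjusted p = 0.00346). psaC, the gene of the iron-sulfur subunit, fell 2.06-fold in RNA and rose 1.99-fold in translation efficiency, and psaJ fell 1.69-fold and rose 2.32-fold. Both RNA calls were lost under library sizes (psaC -0.24, psaJ 0.05, a turned sign), as was the psaC call in translation efficiency (adjusted p = 0.0131). Of 5 PSI genes, 1 rose and none fell in footprints, 2 fell in RNA and 3 rose in translation efficiency. Over all genes 26% rose in footprints and in translation efficiency, and 42.9% fell in RNA. Under library sizes all 5 rose in footprints, and 3 rose and none fell in RNA, beside 43 and 50 rises among all 77 genes. The PSI assembly factor genes moved apart: ycf4 rose 2.52-fold in footprints (adjusted p = 7.03e-05, not called against RB70 at 0.48) and ycf3 fell 2.27-fold (adjusted p = 3.84e-04, lost under library sizes at -0.44).

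The NDH complex, which takes part in cyclic electron transport around PSI together with cytochrome b6f, had lower translation efficiency for most of its genes. Of its 11 chloroplast genes, 7 fell and none rose in footprints, 4 rose and 3 fell in RNA, and 8 fell and none rose in translation efficiency. Over all genes 22.1% fell in footprints and in translation efficiency, and 26% rose and 42.9% fell in RNA. The median change was -0.82 in footprints, 0.25 in RNA and -1.28 in translation efficiency, beside 0.25 over all genes in the last. Under library sizes 4 fell and 1 rose in footprints, 8 rose and none fell in RNA, and 8 fell in translation efficiency, beside 10 per all mapped reads. Of all 77 genes, 10 then fell and 43 rose in footprints, and 50 rose and 10 fell in RNA. In translation efficiency 16 of the 77 fell, and 29 per all mapped reads. ndhA stood at 315, 408 and 321 footprint CPM in ΔpetN and 1627, 1683 and 1209 in pRB8c. The lines were far apart, and ndhA fell 4.32-fold (adjusted p = 1.56e-05), the only NDH gene past 4-fold. ndhG, just inside that limit, fell 3.97-fold, from 1240, 1015 and 967 in pRB8c to 260, 318 and 233 in ΔpetN. ndhI and ndhD fell 2.76-fold and 2.56-fold. Their RNA was not called (ndhI log2 0.12, ndhD 0.25), and translation efficiency fell 2.99-fold for ndhI and 3.04-fold for ndhD. ndhB was not called in footprints (log2 0.32) and rose 1.96-fold in RNA, with the reservation that it lies in the inverted repeat, where the genome holds 2 copies. Against RB70 only 2 NDH genes fell in translation efficiency and 1 rose, beside 12 falls and 16 rises among all 77 genes.

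**Figure D5:**
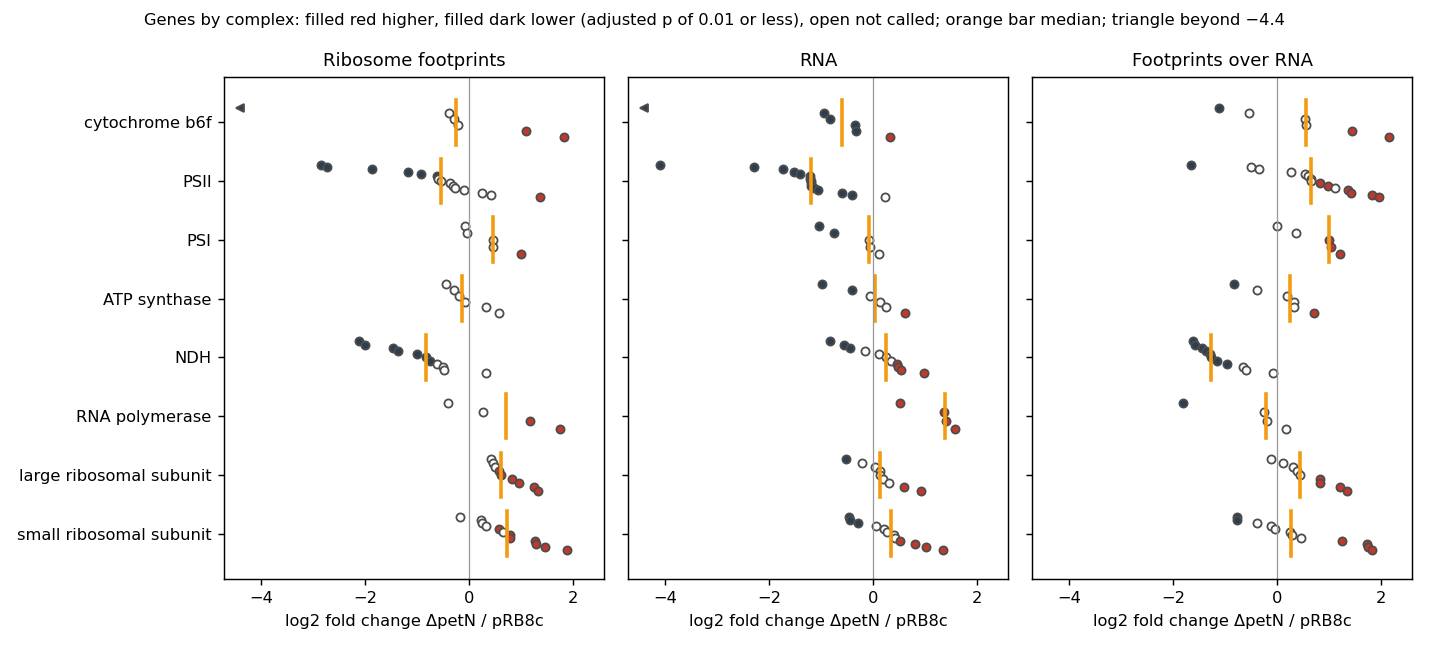
Change of every gene of 8 groups (log2 fold change of ΔpetN over pRB8c) in footprints, RNA and footprints over RNA; filled points were called (red higher, dark lower), open points were not, orange bars are group medians and triangles mark petN beyond the axis. NDH genes lie to the left in footprints over RNA with a median of -1.28, and ribosomal protein genes lie to the right in footprints.

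The 6 chloroplast genes of the ATP synthase gave no call in footprints, with changes from -0.45 (atpF) to 0.57 (atpI), and 2 of them at an unadjusted p under 0.05 in edgeR. In RNA, atpA rose 1.53-fold while atpB and atpE, which overlap on the genome, fell 1.33-fold and 1.98-fold. Translation efficiency fell 1.77-fold for atpA (adjusted p = 0.00102) and rose 1.63-fold for atpE (adjusted p = 0.00493). Under library sizes 3 of the 6 rose in footprints and 5 rose in RNA, beside 43 and 50 of all 77 genes. atpB RNA was then at 0.40 in place of -0.41, and atpE was no longer called in RNA (-0.18) or in translation efficiency (0.64).

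The genes of the chloroplast's own RNA polymerase all rose in RNA. rpoB, rpoC1 and rpoC2, which encode its large subunits and form a unit next to petN, rose 2.65-fold, 2.97-fold and 2.56-fold, and rpoA rose 1.43-fold. The 3 genes of the unit also changed by 1.32, 1.62 and 1.34 (log2) in RNA of the mutant ΔpetB/D against pRB8c. In the mutant ΔpsbJ they changed by 1.16, 1.41 and 1.27. Both mutants are described below. The direct RNA differences of these 3 genes (log2, ΔpetN minus ΔpetB/D) were 0.44, 0.30 and 0.36. Their adjusted p in edgeR was 0.0108, 0.0504 and 0.0190, the first just short of a call. From ΔpsbJ the differences were 0.39, 0.32 and 0.24 (adjusted p = 0.115, 0.134 and 0.266), so that none was called against either mutant. rpoB RNA stood at 2136, 2230 and 2813 CPM in ΔpetN and at 914, 967 and 825 in pRB8c, with no overlap (adjusted p = 3.13e-07). Footprints followed for rpoC1, at 490, 522 and 582 against 211, 156 and 110 (3.35-fold, adjusted p = 2.42e-04), and for rpoC2 (2.24-fold, adjusted p = 0.0014, not called without pRB8c replicate 2 at adjusted p = 0.0125). They did not for rpoB, at 257, 355 and 405 against 436, 385 and 517, where the lines overlapped (log2 -0.40, SE 0.22). rpoB fell 3.51-fold in translation efficiency (log2 -1.81, SE 0.25, adjusted p = 1.53e-05), while rpoC1 and rpoC2 were not called. The rpoC1 rise in RNA was not found against RB70, where it was -2.52. The 12 genes with introns, rpoC1 among them, had a median RNA change of -2.49 against RB70 and of -0.13 against pRB8c. A list of 5 genes that a nucleus-encoded polymerase mainly transcribes held the 3 of the rpoB unit, accD (acetyl-CoA carboxylase) and ycf2. The list, chosen with earlier results of these data known, may leave out other genes of this kind. All 5 rose in RNA (median 1.36) and 2 rose in footprints, beside 26% of all genes in each readout. As 3 of the 5 share 1 unit, they are not separate cases. Under library sizes all 5 rose in RNA and 4 rose in footprints, beside 50 and 43 of the 77 genes.

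Ribosomal protein genes rose in translation output and none fell. Of 9 large subunit genes 6 rose, with changes over the list from 0.43 to 1.32 and a median of 0.61, and of 12 small subunit genes 7 rose, from -0.17 to 1.87 with a median of 0.72. Over all genes tested 26% rose in footprints. All 9 large subunit genes had every ΔpetN library above every pRB8c library, which held for 36.4% of all genes tested. In RNA the large subunit genes gave 2 rises and 1 fall and the small subunit genes 4 rises and 3 falls, but 8 and 10 rises with no fall under library sizes. All 77 genes together gave 20 rises and 33 falls in RNA, and 50 rises and 10 falls under library sizes. Against RB70, 2 large and 2 small subunit genes rose in footprints, beside 9 of all 77 genes. rps18 had the largest footprint rise of the 77 genes, at 2217, 1466 and 2101 CPM in ΔpetN against 547, 569 and 465 in pRB8c. The lines were well apart, with a 3.66-fold rise (adjusted p = 3.42e-05), while rps18 RNA was not called (log2 0.05, SE 0.13), and its translation efficiency rose 3.53-fold. rps14, rps15 and rps16 showed RNA called slightly lower with footprints 2.76-fold, 2.42-fold and 1.73-fold higher. Their RNA direction turned under library sizes (0.52, 0.35 and 0.37). rpl33 rose in both, 2.49-fold in footprints and 1.90-fold in RNA. rps2 and rps4 rose 2.03-fold and 2.54-fold in RNA, and their translation efficiency fell 1.70-fold and 1.72-fold, calls that were lost in 5 and 4 of the 6 fits without 1 library.

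Among the other genes, clpP, which encodes a subunit of the Clp protease, fell 2.53-fold in footprints (adjusted p = 1.31e-04) and also fell in translation efficiency (adjusted p = 5.44e-04). Against RB70 its footprints were not called (log2 -0.67, adjusted p = 0.0308) and its translation efficiency rose (2.37). ccsA, whose product attaches haem to c-type cytochromes such as cytochrome f, fell 3.91-fold in RNA, from 2087, 1862 and 1995 CPM in pRB8c to 471, 578 and 472 in ΔpetN. The lines were far apart in RNA (adjusted p = 1.49e-08). In footprints ccsA stood at 138, 406 and 190 against 647, 414 and 479. The second ΔpetN library came close to the control, and the 2.10-fold lower value was not called (adjusted p = 0.0269) except without that library (adjusted p = 6.13e-04). cemA, listed as ycf10, was not called in footprints (log2 -0.38) and rose 1.81-fold in RNA. ycf1 was not called in any readout.

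ΔpetN was also compared directly with a mutant of the same complex and with a mutant of PSII, both grown in the same way. The values of these 3 mutants against pRB8c share the control libraries, so that only the direct tests are read as differences. ΔpetB/D is an insertion knockout in which the cassette removes petB, the start of petD and the adjoining psbB, psbT, psbN and psbH. Footprints of 17 genes (22.1%) and RNA of 46 genes (59.7%) differed between ΔpetN and ΔpetB/D, and these 6 genes are among both. So are petN, knocked out in ΔpetN, and psbM, the gene beside it. psbA footprints had changed by -3.24 in ΔpetB/D and by -2.84 in ΔpetN against pRB8c, and the direct difference of 0.46 (SE 0.22) was not called (adjusted p = 0.167). rbcL footprints gave no call either (SE of the log2 difference 0.27, adjusted p = 0.995). petA footprints were not called (log2 -0.40, SE 0.21, adjusted p = 0.205). petG and petL RNA was 2.13-fold and 2.94-fold lower in ΔpetN (adjusted p = 3.04e-05 and 1.69e-06), beside 0.60 and 0.94 in ΔpetB/D against pRB8c. Without ΔpetN replicate 1, 2 or 3 the 17 footprint differences became 8, 9 and 6.

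ΔpsbJ lacks the small PSII subunit PsbJ and keeps all cytochrome b6f genes. Footprints of 19 genes (24.7%) and RNA of 22 genes (28.6%) differed between ΔpetN and ΔpsbJ. Both counts include the knocked-out genes petN and psbJ, and psbM beside petN. petB footprints were 3.53-fold higher in ΔpetN (log2 1.82, SE 0.20, adjusted p = 3.30e-05) and petD footprints 1.64-fold higher (adjusted p = 0.00463), while petB RNA was not called (log2 0.13, SE 0.07, adjusted p = 0.184). psbA footprints were 10.9-fold lower in ΔpetN (log2 -3.45, SE 0.19, adjusted p = 3.80e-08), with psbA RNA not called (log2 0.06, SE 0.15). rbcL footprints were 2.13-fold lower (adjusted p = 0.0064), a call lost with library sizes alone (adjusted p = 0.0461). petA footprints gave a difference of -0.03 (SE 0.20, adjusted p = 0.945). With library sizes alone 40 genes differed in footprints, and without ΔpetN replicate 3 the 22 RNA differences became 13.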

How the data were processed

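The authors trimmed reads with cutadapt, aligned the remainder of each step with STAR 2.7.1a (contaminant RNAs first, then the chloroplast, mitochondrial and nuclear genomes) and counted reads in coding regions with featureCounts. They deposited raw counts per chloroplast gene for footprints, counts per gene for RNA (estimated counts that need not be whole, 18 values of genes in several copies or parts here, which were rounded), and RPKM of both assays. For genes with introns they counted footprints over the last exon only. In the deposited windows 10 nt were left out at the low-coordinate end and 30 nt at the high end on both strands, so that on the minus strand the longer stretch lies at the start codon. The deposited footprint RPKM followed from counts, window and mapped reads in 231 of 231 values of each line (tolerance 0.001), and RPKM served only for levels per gene length and in an alternative. 12 columns of RPKM values were not used, since their names did not match the labels.

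Counts were tested with edgeR 4.0.16 (glmQLFit, glmQLFTest) in R 4.3.3 with TMM factors within each assay and Benjamini-Hochberg adjustment over the 77 genes. Only the lines compared entered a fit, and translation efficiency was the interaction of line and assay in 1 fit of both. Per-library values are TMM-scaled CPM. Groups and replicates follow the labels, and all pairs differed by more than counting noise. The rule for named genes took petN, psbM, the cytochrome b6f genes, psbA, rbcL, all genes changed at least 4-fold, the 8 largest called rises and falls per readout and the 2 largest changes of each list, and genes outside it were named after their values were seen. The members, lists and tests were chosen with earlier results of these data known. The fits were also run on simulated counts in which a minority of genes changed, equally up and down, and the most abundant genes did not. That run cannot test the scaling where most genes or the most abundant genes change. Alternatives were library sizes alone, DESeq2 1.42.0 (size factors and Wald test), TMM without petN and psbM, limma 3.58.1 on log2(RPKM + 1), no count filter or 100 counts, all lines in 1 fit, a replicate block, each replicate left out, RB70 as control, an adjusted p of 0.05, and 2-fold in place of 4-fold. Further alternatives of the direct comparisons (library sizes alone, a replicate block, each replicate left out) were chosen after seeing the data. All 78 symbols matched RefSeq tobacco chloroplast genes or their synonyms. Values of 1 gene that this rule names are not reported here.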

Additional observations from a re-analysis of the deposited data

Results flagged for a closer look

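Direct tests between mutants gave the following differences in edgeR at an adjusted p of 0.01 or less, for genes that the report sets side by side (log2, ΔpetN minus the other mutant, 3 libraries each). Against ΔpetB/D, psbM was lower by -2.47 in footprints (adjusted p = 0.00369) and by -3.63 in RNA, beside the cassette inserted next to it in ΔpetN. petG RNA gave -1.09 and petL RNA -1.56. RNA of the PSI core genes was higher, psaA by 0.81 and psaB by 0.77, while their footprints were not called (0.24 and 0.60).

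Against ΔpsbJ, footprints of petB gave 1.82, petD 0.71, psaB 0.70, rbcL -1.09, psbM -2.75 and psbA -3.45. RNA gave 0.40 for petA, -0.49 for petL, -3.23 for psbM, 0.73 for psaA and 0.68 for psaB. With library sizes alone the psbA value was -2.80 and the petB value 2.46, both called, and rbcL was -0.47 (adjusted p = 0.0461).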

How the results depend on the processing

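Whether the replicate numbers in the labels pair the samples could not be settled, since 3 libraries per line are too few. Whether footprint and RNA libraries of the same number came from the same plants was not tested. The fit of translation efficiency treated them as unpaired, also with a replicate block. Deviations of same-numbered ΔpetN and pRB8c libraries correlated at -0.39, -0.45 and -0.10 in footprints and at 0.43, -0.22 and 0.01 in RNA, and only 1 of 6 numbers was its own best match. With a replicate block 14 genes were higher and 13 lower in footprints, 20 and 32 in RNA, and 19 and 14 in translation efficiency. In the direct comparisons the block gave 11 footprint differences from ΔpetB/D and 11 from ΔpsbJ.

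Library sizes alone gave 43 higher (10 of them at least 4-fold) and 10 lower genes in footprints, and 50 higher (4 at least 4-fold) and 10 lower in RNA, since the median then moved up. The RNA values that turned sign were atpF 0.75, clpP 0.48, ndhG 0.25, petB 0.49, petD 0.46, psaI 0.76, psbH 0.22, rps14 0.52, rps15 0.35 and ycf3 0.61. Direct footprint differences numbered 11 from ΔpetB/D and 40 from ΔpsbJ. limma on log2(RPKM + 1), which is per all mapped reads, gave 50 higher (4 at least 4-fold) and 7 lower genes in RNA and 2 higher (0 at least 4-fold) and 29 lower (11 at least 4-fold) in translation efficiency. It turned the RNA of atpF 0.80, clpP 0.53, ndhA 0.047, ndhG 0.34, petB 0.54, petD 0.52, petG 0.036, psaI 0.81, psbH 0.27, rps14 0.58, rps15 0.40 and ycf3 0.66.

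Against RB70, 9 genes were higher in footprints, 12 were at least 4-fold lower in RNA, and past 4-fold in translation efficiency were 7 rises and 2 falls. Values that turned were psaI -1.07 and psbT -0.87 in footprints, ndhI -0.98, psaI 0.88, psbA 0.93, psbD 0.33, rbcL 0.36, rpoC1 -2.52 and rps14 0.49 in RNA, and atpF 3.36, clpP 2.37, ndhA 0.96, psaI -1.95, psbD -0.87, rps2 0.13 and ycf3 1.93 in translation efficiency. RB70 RNA counts in reading frames came to 110.8%, 95.5% and 109.4% of its chloroplast reads, and its libraries were shallower. The cause of the turned values was not tested.

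A 2-fold limit gave 12 higher and 13 lower genes in footprints, 5 and 15 in RNA, and 14 and 12 in translation efficiency. All lines in 1 fit gave 20 lower genes in RNA and 13 higher and 11 lower in translation efficiency. TMM factors without petN and psbM left 0 genes at least 4-fold higher in translation efficiency. With 1 library left out, footprints gave 15 to 25 higher genes (0 to 1 at least 4-fold) and 13 to 18 lower (3 to 6), RNA 17 to 28 higher and 22 to 31 lower (3 to 4 at least 4-fold), and translation efficiency 14 to 19 higher (0 to 4) and 13 to 19 lower. Direct differences ranged from 6 to 17 (footprints) and 33 to 44 (RNA) for ΔpetB/D, and from 13 to 20 and 13 to 24 for ΔpsbJ. The chloroplast share differed by -8.77 to -6.23 points in footprints and by 2.25 to 3.88 in RNA. DESeq2, other count filters and an adjusted p of 0.05 kept each count within 1.5 times. Of 84 called values of named genes, 67 were called in all 6 fits with 1 library left out, and 10 lost the call in most of them. Over these fits and the alternatives of scaling, DESeq2, count filter, all lines and replicate block, 29 of the 84 lost the call or turned sign at least once. RB70 and limma are not part of that count.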
